A study of Mus musculus with 32 samples.

Results

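Neurons of the spiral ganglion carry the signal of the hair cells to the brain. The 10 genes described here code for neuronal proteins of the cytoskeleton, synapses and surface and for a neuronal ubiquitin hydrolase. They were taken by symbol from the deposited tables (Nefl, Nefm, Nefh, Prph, Tubb3, Stmn2, Snap25, Syt1, Thy1 and Uchl1). All 10 were listed in each of the 32 libraries, whose tables hold 39399 genes in 1 strain and 43947 in the other. RNA sequencing was done on cochleae of 10-week-old mice that carried 1 Cre allele and 1 RiboTag allele, which puts an HA tag on a ribosomal protein in cells where Cre has acted. The Prestin strain (PrestinCre/+;RiboTagHA/+) drives Cre from the gene of the outer hair cell motor protein and the Sox2 strain (Sox2Cre/+;RiboTagHA/+) from a transcription factor gene of supporting cells. The design text names the alleles as PrestinCreERT2 and Sox2CreERT2, with CBA in the strain name. Mice had no noise (control) or were exposed to noise of 105 dB SPL for 2 h and sampled 6 h or 24 h later. One aliquot of each homogenate gave the input, which stands for the whole cochlea, and the rest an immunoprecipitate with an HA antibody (IP). Each Prestin group held 3 libraries, and the Sox2 groups held 2 without noise, 2 at 6 h and 3 at 24 h, for input and for IP alike. All groups, the controls included, carried both alleles. Whether a homogenate pooled animals is not given in the sources used here.

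Neurofilaments are the heteropolymers that fill large axons and set their calibre. Nefl, Nefm and Nefh code for the light, medium and heavy chains, and Prph codes for peripherin, a related intermediate filament protein that in the adult cochlea marks the thin type II neurons contacting outer hair cells. Most spiral ganglion neurons are myelinated type I cells that contact inner hair cells, and their cell bodies and axons are part of a whole cochlea. Neither Cre line is meant to tag them, though several of the 10 genes are also active in other cells.

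The values are TPM, a length-scaled share of each library that sums to the same total in all of them, so the sequencing depth behind them is unknown and levels can be compared between genes. Between 15929 and 21239 genes were above 0 in a library. Mitochondrially encoded genes took 20.5% to 28.6% of the TPM of the inputs and 3.07% to 13.7% of the IPs. Slc26a5, the gene of the outer hair cell motor protein, was higher in the Prestin IP than in its input by 2.46 ± 0.23 (difference ± standard error, here and for all later differences, on the log2(TPM + 1) scale; limma, Benjamini-Hochberg adjusted p = 1.61e-07), and Sox2 in the Sox2 IP by 3.19 ± 0.20 (adjusted p = 6.24e-07). A gene was called where the adjusted p was below 0.05. One 6 h input of the Prestin strain (replicate 2) held the highest summed level of 8 central glia genes among the Prestin inputs, 93.3 TPM against 15.6 to 44.7 TPM in the other 8. Skeletal muscle genes summed to 1234 and 1841 TPM in the Sox2 24 h inputs of replicates 1 and 2 and to 5.39 to 259.7 TPM in the other 14 inputs.

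RefSeq start sites (build GRCm38.p6) were at hand for 4 of the 10 genes, Tubb3, Prph, Syt1 and Uchl1. The sequence before these starts is shown as a description and was not set against the noise response. The start site used lay past the GENCODE start of the gene by 129 bases in Tubb3, 30 in Uchl1 and 7 in Syt1. The Tubb3 stretch thus lies inside the GENCODE span of the gene, and those of Uchl1 and Syt1 reach into theirs. Each line gives the 100 bases just before the start site, 5′ to 3′ on the strand of the gene (chr8:123411453-123411552 on the plus strand for Tubb3, chr15:99055074-99055173 on the plus strand for Prph, chr10:109010976-109011075 on the minus strand for Syt1 and chr5:66676021-66676120 on the plus strand for Uchl1). Capitals mark matches on either strand to the TATA element TATAA, the CAAT box core CCAAT and the GC box core GGGCGG, and in Tubb3 the TATAA matches of the 2 strands overlap.
Tubb3: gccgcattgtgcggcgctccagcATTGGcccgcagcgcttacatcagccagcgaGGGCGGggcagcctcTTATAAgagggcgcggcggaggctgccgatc
Prph: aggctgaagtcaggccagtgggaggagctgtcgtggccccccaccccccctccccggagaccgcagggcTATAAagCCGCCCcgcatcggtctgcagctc
Syt1: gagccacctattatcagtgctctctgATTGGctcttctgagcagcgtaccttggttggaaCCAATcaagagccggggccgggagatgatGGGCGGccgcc
Uchl1: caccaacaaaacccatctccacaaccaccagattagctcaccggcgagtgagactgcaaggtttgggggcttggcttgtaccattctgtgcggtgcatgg
On the strand of the gene, TATAA began at position -31 from the start site in Prph and at -30 in Tubb3. The Tubb3 match on the other strand covers bases from -31 on. TATAA was in neither Syt1 nor Uchl1. Over all 32851 promoters of the table, 10.2% held TATAA in the same 100 bases, 18.9% CCAAT and 24.7% GGGCGG. Uchl1 held none of the 3 in the bases shown. A match describes these letters and is not a measured site.

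In the whole cochlea the neurofilament genes led the set. Over the 16 inputs the mean level was 431 TPM for Nefl and 291 TPM for Nefh, then 154 for Thy1, 83.9 for Nefm, 60.9 for Snap25, 56.3 for Tubb3 and 45.6 for Uchl1. Stmn2 (8.11 TPM), Prph (7.39 TPM) and Syt1 (0.422 TPM) came last. Nefl exceeded Nefh, Nefh exceeded Thy1, and Thy1 exceeded Nefm in 16 of 16 inputs. The order of some neighbours did not hold in each library: Snap25 was above Tubb3 in 10 of 16 inputs, Tubb3 above Uchl1 in 12, Nefm above Snap25 in 14 and Stmn2 above Prph in 9. The 3 neurofilament genes together held 61.8 to 77.3% of the summed TPM of the 10 genes in the inputs of the Prestin strain, and 60.8 to 74.3% in those of the Sox2 strain.

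The comparison of noise with control inputs asks how RNA of the whole cochlea responds. In the Prestin strain the 10 genes summed to 1218 to 1821 TPM without noise, 977 to 1246 TPM at 6 h and 708 to 771 TPM at 24 h. At 24 h, 5 of the 9 genes tested were lower than in control (Nefl, Nefm, Nefh, Tubb3 and Uchl1) and none higher, where 2.05% of the 14039 genes tested were lower and 5.22% changed in either direction. At 6 h, 2 of 9 were lower, Nefm and Uchl1, against 2.20% of all genes (4.71% changed in either direction). The median of the 9 genes was -1.01 at 24 h and -0.56 at 6 h on the log2(TPM + 1) scale, and that of all genes -0.02 and -0.04. Syt1 was under the filter of 1 TPM in 3 libraries and was not tested. In bulk tissue, and with TPM as a share, fewer neurons, less RNA per neuron and more RNA of other cells cannot be told apart.

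**Figure D1:**
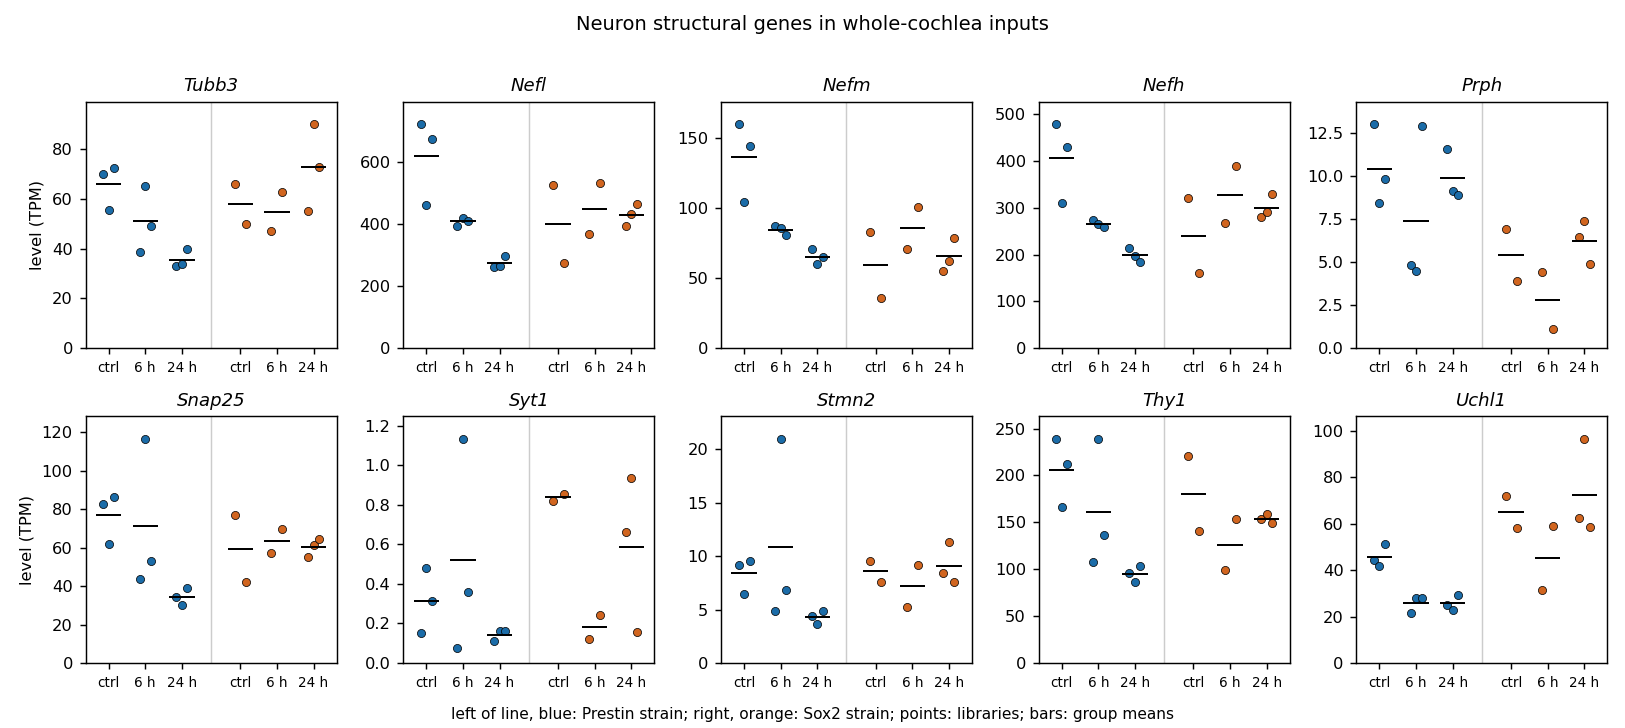
Level in TPM of the 10 genes in each of the 16 whole-cochlea inputs, from 0 upwards on each vertical axis, by noise group (horizontal), with the Prestin strain in blue and the Sox2 strain in orange; points are libraries and bars group means. In the Prestin strain the 24 h points of 8 genes lie below all control points, Prph and Syt1 being the exceptions, and no such order is seen in the Sox2 strain.

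Nefl (ENSMUSG00000022055, chromosome 14, 68083863 to 68089095, plus strand of GRCm38), the light chain without which no filament forms, stood at 723, 463 and 675 TPM in the control inputs of replicates 1 to 3, at 394, 420.0 and 411 TPM at 6 h and at 262, 265 and 297 TPM at 24 h. The 3 groups did not overlap. Its difference from control was -1.15 ± 0.15 (adjusted p = 0.00885) at 24 h and -0.58 ± 0.15 (adjusted p = 0.0794) at 6 h. Nefm (ENSMUSG00000022054, chromosome 14, 68082590 to 68124846, minus strand), the medium chain, was 159.8, 104 and 144 TPM in control, 86.8, 85.7 and 81.0 at 6 h and 70.3, 60.0 and 64.8 at 24 h, again without overlap between any 2 groups. It fell at both times, by 0.66 ± 0.15 at 6 h (adjusted p = 0.0460) and by 1.03 ± 0.15 at 24 h (adjusted p = 0.0106). The 6 h call was lost when any of 8 of the 9 libraries was left out, and also without the filter (adjusted p = 0.0825), with median-of-ratios scaling (0.0777) and with the replicate number as a block (0.0535). Nefh (ENSMUSG00000020396, chromosome 11, 4938754 to 4948064, minus strand), whose long phosphorylated tail spaces the filaments, was 479, 310.1 and 430.2 TPM in control, 274, 264 and 259 at 6 h and 214, 197 and 184 at 24 h. It stepped down between the groups without overlap and was -1.01 ± 0.15 (adjusted p = 0.0112) at 24 h and -0.59 ± 0.15 (adjusted p = 0.0654) at 6 h. All 3 calls at 24 h held in each of the 14 alternative fits.

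Nefl lies inside the span of Nefm on the opposite strand, and the use of strand in counting is not given in the sources used here, so reads of the pair may not have been told apart. Nefh lies on another chromosome and overlaps no listed gene. In the Prestin inputs the chains kept similar proportions within a library. Nefm per Nefl was 0.213 to 0.225 in control, 0.197 to 0.220 at 6 h and 0.218 to 0.269 at 24 h. Nefh per Nefl was 0.637 to 0.670, 0.630 to 0.695 and 0.621 to 0.817. The ranges of both ratios overlapped between control and 24 h. In Sox2 inputs Nefm per Nefl was 0.130 to 0.158 in control, 0.189 to 0.191 at 6 h and 0.141 to 0.170 at 24 h. Nefh per Nefl there was 0.590 to 0.610, 0.723 to 0.734 and 0.670 to 0.713. These differences between groups were not tested.

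Prph (ENSMUSG00000023484, chromosome 15, 99055174 to 99058978, plus strand), the peripherin gene, had a level of 13.03, 8.43 and 9.84 TPM in control, 4.82, 4.48 and 12.9 at 6 h and 11.6, 9.13 and 8.93 at 24 h. The 24 h and control libraries overlapped, and 1 of the 6 h libraries (replicate 3) lay among the controls while the others lay below them. The difference from control was -0.06 ± 0.34 (adjusted p = 0.952) at 24 h, with an interval of 2 standard errors from -0.74 to 0.62, and -0.56 ± 0.34 (adjusted p = 0.394) at 6 h. Without the 6 h library of replicate 3, the 6 h difference was -0.997 ± 0.18 (adjusted p = 0.0434). Prph per Nefl was 1.46 to 1.82% in control and 3.005 to 4.43% at 24 h, without overlap, and 1.07 to 3.14% at 6 h, a difference that was not tested. The ranges of control and 24 h overlapped in Sox2 inputs (1.32 to 1.43% and 1.05 to 1.70%) and in Prestin IPs (1.04 to 2.94% and 1.87 to 2.90%).

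Tubb3 (ENSMUSG00000062380, chromosome 8, 123411424 to 123422015, plus strand) codes for the neuron-specific class III beta-tubulin. It was 70.1, 55.7 and 72.4 TPM in control, 38.7, 65.3 and 49.0 at 6 h and 33.0, 33.9 and 39.7 at 24 h. The 24 h libraries lay below all controls, and 1 of the 6 h libraries (replicate 2) lay among them. Tubb3 fell by 0.87 ± 0.19 at 24 h (adjusted p = 0.0393), a call lost when any of 7 of the 9 libraries was left out, the control of replicate 3 giving the largest adjusted p at 0.133, and also without the filter (adjusted p = 0.0739) and with the replicate number as a block (0.0789). At 6 h it was -0.39 ± 0.19 (adjusted p = 0.285). Stmn2 (ENSMUSG00000027500, chromosome 3, 8509360 to 8561606, plus strand), a microtubule regulator of growing axons, was 9.14, 6.47 and 9.59 TPM in control, 4.84, 21.0 and 6.87 at 6 h and 4.42, 3.61 and 4.88 at 24 h. Its 6 h library of replicate 2 was the highest of the 9, and the 24 h libraries lay below the controls. The differences were -0.82 ± 0.43 (adjusted p = 0.345) at 24 h and 0.11 ± 0.43 (adjusted p = 0.914) at 6 h.

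Snap25 (ENSMUSG00000027273, chromosome 2, 136713453 to 136782428, plus strand), a membrane protein of the vesicle fusion complex, was 82.9, 62.0 and 86.3 TPM in control, 43.6, 117 and 52.9 at 6 h and 34.4, 30.0 and 39.1 at 24 h. All 24 h libraries lay below the controls, but the 6 h library of replicate 2 was above every control. The 24 h difference of -1.13 ± 0.33 (adjusted p = 0.0997) did not pass. Syt1 (ENSMUSG00000035864, chromosome 10, 108497650 to 109010982, minus strand), a calcium sensor of forebrain vesicles, was 0.151, 0.479 and 0.315 TPM in control, 0.0771, 1.13 and 0.359 at 6 h and 0.110, 0.160 and 0.159 at 24 h. Only the 6 h library of replicate 2 reached 1 TPM. Its relative Syt2, the calcium sensor of fast hindbrain synapses, was above Syt1 in every library, with 4.54 to 13.03 TPM in the Prestin strain's inputs and 5.52 to 11.9 TPM in those of the Sox2 strain. Syt2 was -0.91 ± 0.24 at 24 h (adjusted p = 0.0711).

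Thy1 (ENSMUSG00000032011, chromosome 9, 44043384 to 44048579, plus strand), a GPI-anchored surface protein of projection neurons that T cells and fibroblasts also carry, was 239, 167 and 212 TPM in control, 108, 239 and 137 at 6 h and 96.2, 86.9 and 103 at 24 h. The 24 h libraries were below all controls, and the 6 h library of replicate 2 matched the highest control. The 24 h difference was -1.09 ± 0.27 (adjusted p = 0.0608). Uchl1 (ENSMUSG00000029223, chromosome 5, 66676091 to 66687234, plus strand), an abundant ubiquitin hydrolase of neurons, was 44.4, 41.7 and 51.3 TPM in control, 21.6, 28.0 and 28.0 at 6 h and 25.1, 22.9 and 29.1 at 24 h. Both noise groups lay below the controls and overlapped each other. Uchl1 fell by 0.80 ± 0.14 at 6 h (adjusted p = 0.0177) and by 0.81 ± 0.14 at 24 h (adjusted p = 0.0171), and between 6 h and 24 h the difference was -0.01 ± 0.14, with 2 standard errors reaching from -0.28 to 0.26. Leaving out the control of replicate 1 or 3 ended both calls, with adjusted p from 0.0557 to 0.0654, and leaving out the 24 h library of replicate 1 or 2 did so at 24 h (0.0704 and 0.0681).

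Read by overlap alone, 8 of the 10 genes were lower in every 24 h library than in any control, where 16.2% of the genes tested were, and 4 of 10 at 6 h (Nefl, Nefm, Nefh and Uchl1), against 14.8%. Several of the 24 h tests turned on the 6 h library of replicate 2, since the 3 groups share 1 estimate of the spread. Without it, 8 of 9 genes passed at 24 h, Snap25 at -1.13 ± 0.16 (adjusted p = 0.0112), Thy1 at -1.09 ± 0.15 (adjusted p = 0.0112) and Stmn2 at -0.82 ± 0.18 (adjusted p = 0.0403), Prph being the exception. Its 8 central glia genes summed to 93.3 TPM, among them Olig1 at 31.5 TPM, and their part in its Snap25, Stmn2, Syt1 and Thy1 levels was not tested. Other libraries moved the 24 h count the other way. Without the control of replicate 1 or 3, or the 24 h library of replicate 1 or 2, only 3 genes passed at 24 h (Nefl, Nefm and Nefh). Leaving out the control of replicate 2, the lowest control for each of the 9 genes tested, raised the 6 h count from 2 to 4 by adding Nefl (-0.77 ± 0.08, adjusted p = 0.00793) and Nefh (-0.77 ± 0.08, adjusted p = 0.00974). Leaving out any 24 h library or the 6 h library of replicate 1 or 2 left 1 call at 6 h. Without the control of replicate 1 or 3, no gene passed at 6 h, where 4 of 9 had an unadjusted p under 0.05 in the full limma fit. Between the times, 0 of 9 genes passed in limma (6 had an unadjusted p under 0.05; 9.64% of all genes were called), and Nefl was -0.57 ± 0.15 (adjusted p = 0.0557). By overlap, Nefl, Nefm, Nefh, Snap25 and Thy1 were lower in each 24 h library than in any 6 h library, where 14.5% of all genes were. Without the control of replicate 2, Nefl, Nefm and Nefh passed between the times.

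**Figure D2:**
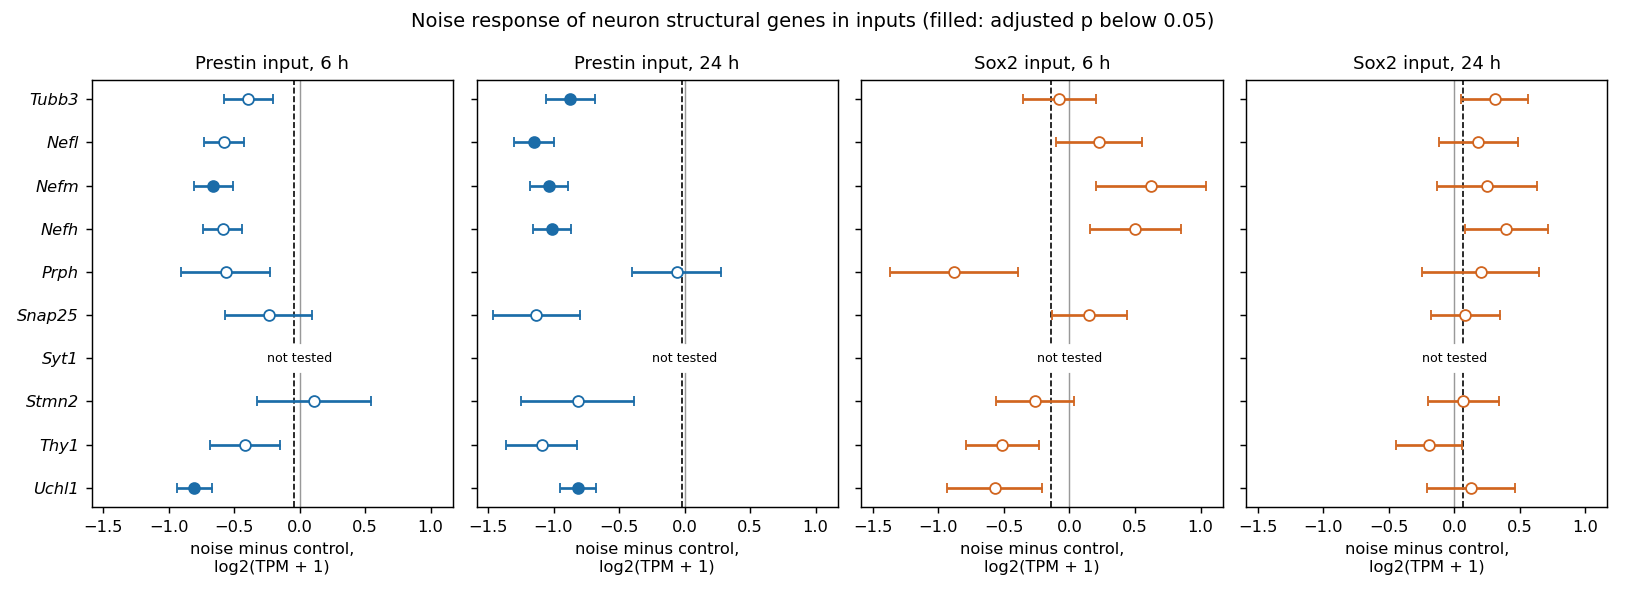
Difference between noise and control inputs on the log2(TPM + 1) scale (horizontal axis) for each gene (vertical axis), with bars of 1 standard error of the limma fit, filled points for an adjusted p below 0.05 and a dashed line at the median of all genes tested. In the Prestin strain at 24 h all 9 tested genes lie left of the dashed line, from -1.15 for Nefl to -0.06 for Prph, and in the Sox2 strain no point is filled.

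Some other neuron genes fell as well. They are from lists that hold none of the 10 and were chosen with earlier results of these data known. In Prestin inputs at 24 h, 3 of 13 tested axon and cytoskeleton genes fell (median of the list -0.58), namely the microtubule proteins Map1a (-0.79 ± 0.09, adjusted p = 0.00625) and Map2 (-0.58 ± 0.12) and Ina, the filament protein alpha-internexin (-1.15 ± 0.26). Of 15 synaptic vesicle genes, 2 fell (median -0.85): the vesicle fusion protein Vamp1 (-1.13 ± 0.16, adjusted p = 0.00989) and the glutamate transporter Slc17a6 (-0.90 ± 0.18). Of 4 RNA-binding and transcription factor genes, 2 fell (median -0.92), Isl1 and Elavl4. Of 10 ion channel genes, 3 fell (median -0.94): the sodium channel subunit Scn4b (-1.24 ± 0.17) and the potassium channels Kcna2 (-1.07 ± 0.17) and Kcna1 (-0.91 ± 0.17). Of 7 genes that separate neuron subtypes, 3 fell (median -0.72), among them Calb2 (-1.05 ± 0.18) and Lypd1 (-1.17 ± 0.20), which mark different type I classes. No gene of these 5 lists rose at 24 h, and none passed in either direction at 6 h. Of 7 tested neuron injury genes, 3 rose at 6 h, Atf3 by 2.14 ± 0.20, Sprr1a by 3.53 ± 0.46 and Gadd45a by 1.005 ± 0.21, and Gadd45a alone at 24 h (0.97 ± 0.21). The injury list summed to a mean of 365 TPM in Prestin control IPs and 73.8 TPM in their inputs. The 10 genes summed to 1906 and 1577 TPM in the same groups. In Sox2 inputs the mean sum of the injury list was 77.7 TPM in control and 158 TPM at 6 h. Which cells these rises came from was not tested. Of all genes tested, 2.51% were higher at 6 h and 3.17% at 24 h, and 2.05% were lower at 24 h.

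Levels of some other cells' genes differed between the same groups. The 12 Schwann cell and myelin genes summed to 934 to 1342 TPM in Prestin controls, 877 to 1090.0 at 6 h and 743 to 933 at 24 h, and 1 of the 12, Ncmap, fell at 24 h (-0.66 ± 0.12). Relative to that sum, the 10 genes together were 1.26 to 1.38 in control, 1.101 to 1.14 at 6 h and 0.827 to 0.952 at 24 h, without overlap between the groups. The 6 erythroid genes summed to 2061 to 4153 TPM in control and 1054 to 1774 TPM at 24 h, and 3 of 6 tested macrophage genes rose at 24 h, where 3.17% of all genes did. The 10 supporting cell genes summed to 795 to 855 TPM in control and 811 to 868 TPM at 24 h, and 2 of 9 tested fell at 24 h. Of all genes tested, 2.05% fell at that time. The part of these cell types in the levels of the 10 genes was not tested.

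In the Sox2 strain the same comparison gave no call. The 10 genes summed to 772 and 1380 TPM in the 2 control inputs, 950.5 and 1376 TPM at 6 h and 1070 to 1229 TPM at 24 h. With limma, 0 of 9 tested genes passed at 6 h or at 24 h, and 0 had an unadjusted p under 0.05 at either time; 0.982% of all genes were called at 6 h and 0 of 15371 at 24 h. Syt1, which was not tested, was the single gene without overlap, lower at 6 h, against 31.1% of all genes. Nefl was 524 and 273 TPM in the control inputs of replicates 1 and 4, 369 and 531 TPM at 6 h and 393, 434 and 464 TPM at 24 h. Nefh was 320.1 and 161, then 267 and 389, then 280.0, 291 and 329 TPM. The noise libraries of both genes overlapped the controls, which differed from each other by more than the groups did. Uchl1 was 71.9 and 58.0 TPM in control, 31.5 and 58.8 at 6 h and 62.4, 96.5 and 58.6 at 24 h. At 24 h the differences ran from -0.19 (Thy1) to 0.40 (Nefh), and that of Nefl was 0.18 ± 0.30, with 2 standard errors from -0.42 to 0.78. The sign of this value turned with 1 control: it was -0.29 ± 0.23 (adjusted p = 0.999) without replicate 4 and 0.65 ± 0.23 (adjusted p = 0.868) without replicate 1. Leaving out either 24 h library with muscle genes at 1234 or 1841 TPM gave 0 calls as well.

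The difference between the strains' responses was tested as an interaction over the 16 inputs. At 24 h it was -1.41 ± 0.34 for Nefh, -1.33 ± 0.33 for Nefl, -1.28 ± 0.40 for Nefm and -1.18 ± 0.32 for Tubb3 (Prestin minus Sox2), and 9 of 9 genes were below 0. None passed in limma, with a smallest adjusted p of 0.305, although 7 of 9 had an unadjusted p under 0.05; 1 of 16041 genes was called (0.00623%). At 6 h, 0 of 9 passed and 3 had an unadjusted p under 0.05, where 1.02% of genes were called. The Sox2 control of replicate 1, the higher of the 2 for each of the 10 genes except Syt1, weighed on this test: without it the 24 h difference was -1.90 ± 0.28 (adjusted p = 0.0365) for Nefh, -1.80 ± 0.29 (adjusted p = 0.0393) for Nefl and -1.88 ± 0.31 (adjusted p = 0.0393) for Nefm, with the lone Sox2 control assumed to vary like the other groups. Without the other Sox2 control, replicate 4, the difference shrank to -0.91 ± 0.28 (adjusted p = 0.739) for Nefh, -0.86 ± 0.29 (adjusted p = 0.803) for Nefl and -0.68 ± 0.31 (adjusted p = 0.949) for Nefm, and none passed. At 6 h, 2 genes passed without the control of replicate 1, Nefm and Nefh, and none without that of replicate 4, where Nefm was -0.68 ± 0.32 (adjusted p = 0.387) and Nefh -0.60 ± 0.30 (adjusted p = 0.409). When the inputs of both strains were fitted together with strain as a term, 0 of 9 genes passed at 6 h (8.54% of all genes called), at 24 h (4.44%) or between the times (16.1%), with 2, 2 and 1 genes at an unadjusted p under 0.05 in limma. At 24 h, leaving out the Sox2 control of replicate 4 gave 3 calls, among them Nefl at -0.84 ± 0.17 (adjusted p = 0.0122).

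Comparing IP with input asks which RNA each pull-down keeps. In the Prestin pull-down, meant for outer hair cells, the 10 genes stood low among all genes. Their median difference from input was 0.22, while that of all 17363 genes tested was 0.82, and single genes lay between the percentiles 3.17 and 47.5 of all genes, Uchl1 lowest and Nefl highest. Nefl was higher in the IP (0.77 ± 0.11, adjusted p = 9.11e-06), and its IP was above its own input in 9 of 9 homogenates. Thy1 (-0.64 ± 0.16, adjusted p = 0.00217) and Uchl1 (-0.82 ± 0.18, adjusted p = 0.000691) were lower, and their IP was above its own input in 0 of 9. The other 7 did not pass, where 76.1% of all genes did (68.5% higher and 7.68% lower). With each IP matched to its own homogenate, 7 passed, adding Syt1 and Stmn2 as higher (0.47 ± 0.13, adjusted p = 0.00847; 0.47 ± 0.14, adjusted p = 0.0126) and Nefm and Snap25 as lower (-0.29 ± 0.10, adjusted p = 0.0273; -0.23 ± 0.06, adjusted p = 0.00891). In the control libraries alone, Thy1 was the single call. The higher calls depended on the scale: median-of-ratios scaling moved the median of all genes from 0.82 to 0.05, and on that scale 8 of the 10 genes were lower and none higher (all genes split into 5651 higher and 5455 lower, against 11885 and 1333 on the TPM scale), Nefl included (-0.31 ± 0.11, adjusted p = 0.0219).

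In the Sox2 pull-down, meant for supporting cells, 5 of the 10 genes were higher than in input and none lower, where 57.9% of the 18560 genes were called, 55.2% higher. They were Nefh (0.71 ± 0.24, adjusted p = 0.0278), Syt1 (0.67 ± 0.21, adjusted p = 0.0178), Nefl (0.66 ± 0.17, adjusted p = 0.00781), Stmn2 (0.59 ± 0.17, adjusted p = 0.0122) and Tubb3 (0.42 ± 0.15, adjusted p = 0.0310). Their median difference, over all 10 genes, was 0.31 against 0.65 for all genes. Without the Sox2 6 h input of replicate 2, the 6 h IP of replicate 4, or the control input or IP of replicate 4, 3 were called. Stmn2 and Syt1 were above their own input in 7 of 7 homogenates, Nefl and Nefh in 6 and Tubb3 in 5. Syt1 was at 0.124 to 0.937 TPM in the Sox2 inputs and passed the 1 TPM filter through IPs alone. Its call therefore rests on a gene let in by the side where it was high. Tubb3 differed by 0.76 and 1.31 in the control homogenates and by -0.15 to 0.46 in those after noise. The Tubb3 call held in 9 of 14 fits that left out 1 library. On the median-of-ratios scale, where the median of all genes was 0.02 (3442 genes higher and 3455 lower, against 10241 and 505), none was higher and 5 were lower (Tubb3, Nefm, Snap25, Thy1 and Uchl1), and with mitochondrially encoded genes left out of the total none passed. Glial genes had larger median differences in this pull-down than the 10 genes did: all 12 Schwann and myelin genes were higher, with a median of 2.33, and 6 of 8 central glia genes, with a median of 2.06. In the Prestin pull-down these medians were 0.89 and 0.23.

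**Figure D3:**
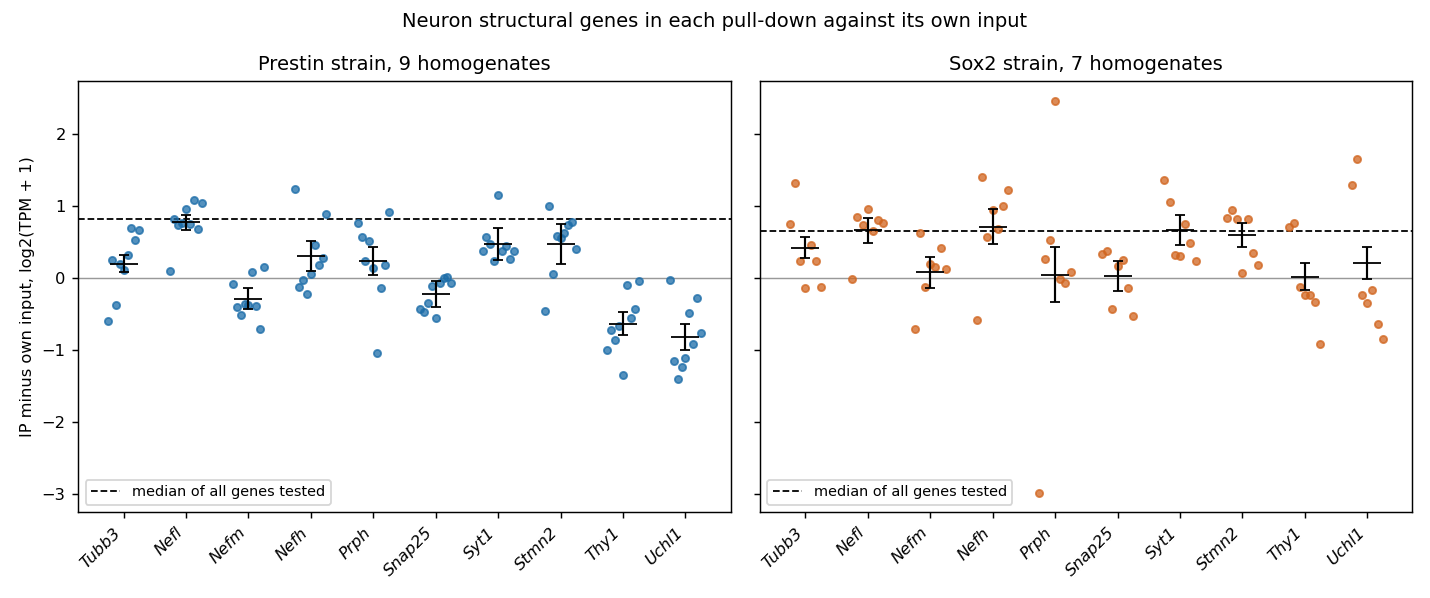
Each IP minus its own input on the log2(TPM + 1) scale (vertical axis) for each gene (horizontal axis), with the Prestin strain on the left and the Sox2 strain on the right; points are homogenates, black marks the fitted difference with 1 standard error, and the dashed line the median of all genes tested. All Thy1 and Uchl1 points of the Prestin strain lie below 0, whereas in the Sox2 strain 2 of 7 of each lie above it, and all fitted marks of the Prestin strain lie below the dashed line.

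The 2 enrichments differed for Uchl1, which was -1.03 ± 0.29 (Prestin minus Sox2 pull-down, adjusted p = 0.0135), against 21.6% of genes called and 7.62% lower. Thy1 was -0.66 ± 0.25 (adjusted p = 0.0643), and with homogenates as blocks -0.66 ± 0.17 (adjusted p = 0.0179). Leaving out any 1 of 8 libraries raised the count of genes called from 1 to 2 (the Prestin IPs of replicate 3 at 6 h and 24 h, the Prestin 6 h input of replicate 1, the Sox2 IPs of 24 h replicate 3, 6 h replicate 2 and control replicate 4, and the Sox2 inputs of control replicate 1 and 6 h replicate 4), and without that Sox2 control input Thy1 was -0.77 ± 0.26 (adjusted p = 0.0456). The other 8 genes ran from -0.41 (Nefh) to 0.19 (Prph). In control libraries alone the Uchl1 difference was -2.33 ± 0.49 (adjusted p = 0.0559).

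**Figure D4:**
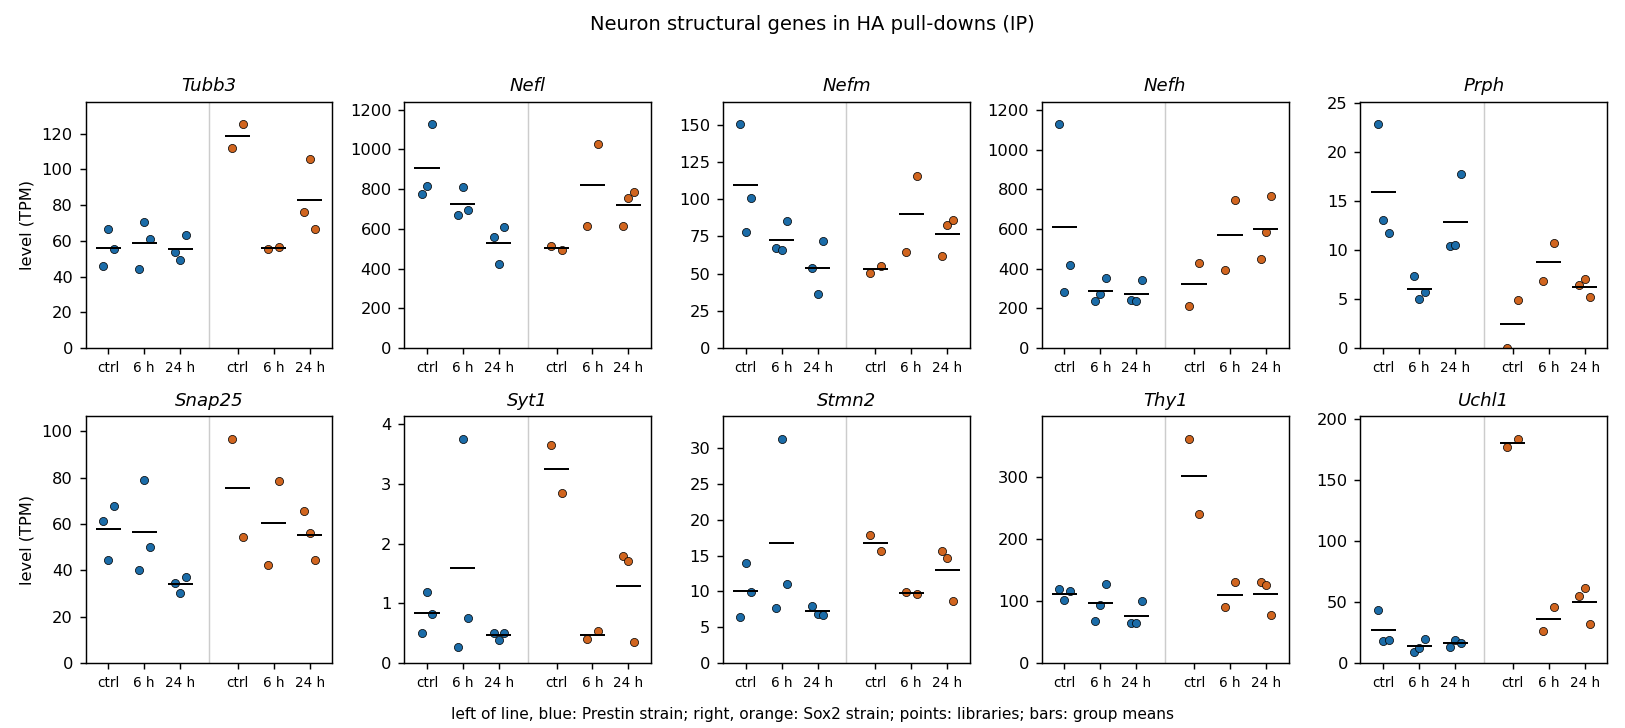
Level in TPM of the 10 genes in each of the 16 pull-downs, from 0 upwards on each vertical axis, by noise group (horizontal), with the Prestin strain in blue and the Sox2 strain in orange; points are libraries and bars group means. In the Sox2 strain the control points of Uchl1, Thy1, Tubb3 and Syt1 lie above the noise points while those of Nefl and Nefm lie below them, and 1 Prestin control (replicate 1) stands apart for Nefh.

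Noise responses in the pull-downs had no call among the 10 genes. In the Prestin IP, limma called 0 of 9 tested genes at 6 h (5.63% of all genes called, 1 of the 9 at an unadjusted p under 0.05) and 0 of 9 at 24 h (6.23%, 3 of the 9). Nefl was 775, 815 and 1128 TPM in control, 670.4, 813 and 692 at 6 h and 557, 425 and 611 at 24 h. Nefm was 151, 78.1 and 101 TPM in control and 53.6, 36.4 and 71.9 TPM at 24 h. The 24 h libraries of both lay below all controls, as did those of Snap25 and Thy1, where 25.9% of genes were so placed. The differences were -0.77 ± 0.21 (adjusted p = 0.0685) for Nefl and -1.01 ± 0.30 (adjusted p = 0.0874) for Nefm, with -0.15 for the median gene. Nefh was 1130.3, 283 and 421 TPM in the controls, of which replicate 1 lay far above the others, and -0.92 ± 0.46 (adjusted p = 0.249) at 24 h. Prph was 22.8, 13.02 and 11.7 TPM in control and 7.32, 5.01 and 5.75 at 6 h, the single gene without overlap at that time (-1.22 ± 0.30, adjusted p = 0.0570), against 23.0% of all genes. The response of the IP was not called different from that of the input for any of the 10 genes (0 of 10 at both times in limma, with 0 at 6 h and 1 at 24 h, Tubb3, at an unadjusted p under 0.05; 2.42% and 1.04% of genes called). Tubb3 was -0.01 ± 0.21 in the IP and -0.87 ± 0.19 in the input at 24 h.

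In the Sox2 IP the 10 genes split. Uchl1 was 177 and 184 TPM in the control IPs of replicates 1 and 4, 26.6 and 45.8 TPM at 6 h and 55.2, 61.7 and 32.2 TPM at 24 h. Thy1 was 361 and 240.2 TPM in control, 90.3 and 129.5 at 6 h and 131, 125 and 78.0 at 24 h. For both, the controls lay above every noise library. Tubb3 was 112 and 125 TPM in control, 55.4 and 56.5 at 6 h and 76.0, 106 and 66.8 at 24 h. Nefl was placed the other way round, with 516 and 492 TPM in control, 613 and 1028 at 6 h and 616, 757 and 788 at 24 h, all noise libraries above the controls. Prph was listed at 0 in 1 control and at 4.89 TPM in the other, and at 6.83 to 10.7 TPM at 6 h and 5.21 to 7.01 TPM at 24 h. At 6 h, 5 of 10 genes were lower without overlap (Tubb3, Syt1, Stmn2, Thy1 and Uchl1) and 3 higher (Nefl, Nefm and Prph), where 24.1% and 18.5% of all genes were. At 24 h, 4 were lower and 4 higher (Nefh joining the latter), against 10.8% and 22.3%. Limma called 0 of 10 at 6 h (5 at an unadjusted p under 0.05; 0.694% of all genes called) and 0 of 10 at 24 h (3 at an unadjusted p under 0.05; 0.188%). The differences at 6 h were -2.34 ± 0.38 (adjusted p = 0.0693) for Uchl1, -1.44 ± 0.35 (adjusted p = 0.122) for Thy1, -1.07 ± 0.24 (adjusted p = 0.110) for Tubb3 and 0.65 ± 0.28 (adjusted p = 0.288) for Nefl. At 24 h Uchl1 was -1.89 ± 0.35 (adjusted p = 0.158) and Thy1 -1.43 ± 0.32 (adjusted p = 0.215). The IP response minus the input response was called for 0 of 10 genes at both times in limma (3 at an unadjusted p under 0.05 each; 0.269% and 0.0485% of genes called).

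Levels of central glia genes differed along with this split, with no call in limma; their median difference was -2.12 at 6 h and -1.35 at 24 h, and Olig2, with the smallest p of the 8, was -3.45 ± 0.58 at 6 h (adjusted p = 0.0717). All 8 were above 0 in both control IPs, where they summed to 674 to 894 TPM. At 6 h they summed to 57.3 to 129 TPM, with Opalin at 0 in both libraries, and at 24 h to 98.1 to 596 TPM. Olig1, a transcription factor of oligodendrocytes, was 429.9 to 605 TPM in control, 9.17 to 47.8 at 6 h and 36.1 to 351 at 24 h, and the astrocyte glutamate transporter Slc1a2 was 94.8 to 118, 6.34 to 12.2 and 11.5 to 62.5 TPM. Gap43, a growth cone protein of the axon list, was 12.8 to 16.9 TPM in control and 0.854 to 0.866 TPM at 6 h. Uchl1 per Nefl was 34.3 to 37.3% in the control IPs, 4.33 to 4.45% at 6 h and 4.09 to 8.96% at 24 h. Thy1 per Nefl was 48.8 to 69.9%, 12.6 to 14.7% and 9.90 to 21.2%. In Prestin IPs, where the central glia genes summed to 26.9 to 92.3 TPM, Uchl1 per Nefl was 1.28 to 5.62%. In the Sox2 inputs the central glia sum was 55.9 to 103 TPM in control, 13.1 to 16.7 at 6 h and 20.1 to 59.8 at 24 h. Uchl1 per Nefl in those inputs was 13.7 to 21.3%, 8.55 to 11.1% and 12.6 to 22.3%. In Prestin inputs it was 5.47 to 9.79%, a range that overlapped the Sox2 inputs at 6 h. Syt1 in the Sox2 inputs was 0.822 and 0.856 TPM in control and 0.124 and 0.245 TPM at 6 h. The part of central glia in these levels was not tested.

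**Figure D5:**
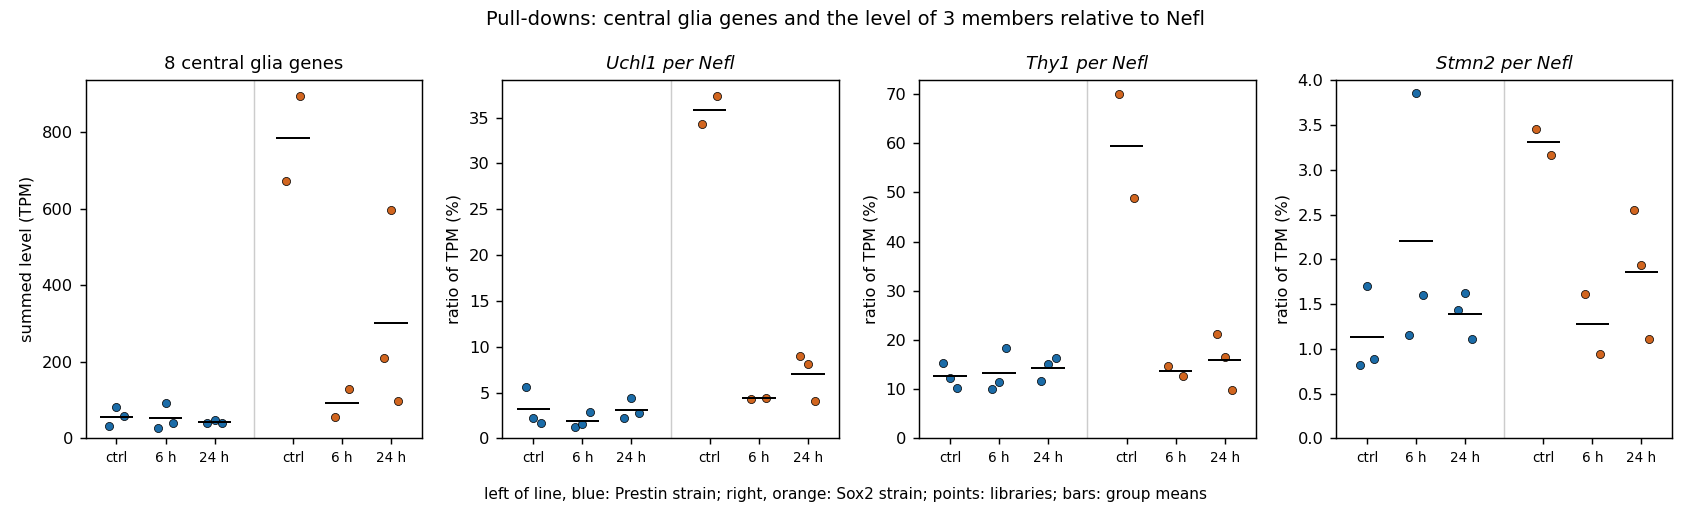
Summed TPM of 8 central glia genes in each pull-down (first panel) and the level of Uchl1, Thy1 and Stmn2 as a percentage of Nefl in the same libraries (other panels), by noise group, with the Prestin strain in blue and the Sox2 strain in orange; points are libraries and bars group means. The 2 Sox2 controls are the highest points of the first 3 panels, at 34.3% and 37.3% for Uchl1 per Nefl.

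Across 8589 genes averaging 5 TPM or more in the inputs, the profile of the 10 genes over the 16 inputs was ranked for likeness (Pearson r with the mean of the z-scored levels, each strain centred on its own mean). The 8 most like genes were Mllt11 (r = 0.959, mean 30.1 TPM), Kcnh2 (r = 0.959, mean 7.38 TPM), Sult4a1 (r = 0.950, mean 22.1 TPM), Gdap1 (r = 0.947, mean 11.3 TPM), Mapk8ip2 (r = 0.942, mean 74.7 TPM), Paqr4 (r = 0.939, mean 116 TPM), Ndrg4 (r = 0.939, mean 84.9 TPM) and Kif3c (r = 0.935, mean 18.4 TPM). The list is a description, since the 16 libraries share the noise groups and the genes share each library. Kif3c codes for a neuronal kinesin, Mapk8ip2 for a scaffold of the JNK kinases, Kcnh2 for a potassium channel and Gdap1 for a mitochondrial protein of peripheral nerve.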

How the data were processed

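RNA was sequenced from input and HA pull-down of 16 cochlear homogenates (32 libraries) with a directional kit, per the labels' protocols. The authors deposited 1 table of TPM per library, each with the same total. The submitters' processing notes name TopHat and GRCm38, while the strandedness of counting, the counting tool, its version and the annotation were not given in the sources used here. Depth is not reported, since TPM does not keep it. Prestin and Sox2 tables list 39399 and 43947 genes, and the genes found in 1 strain's tables alone were not used across strains.

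Values were analysed as log2(TPM + 1) with limma 3.58.1 (lmFit, and eBayes with a trend) in R 4.3.3, tested on simulated data first. Genes needed at least 1 TPM in 3 (Prestin) or 2 (Sox2) libraries, and in 5 where both strains' inputs were fitted with strain as a term. For the strain interactions and the difference between enrichments, 2 libraries were enough. P-values were adjusted over all genes tested (Benjamini-Hochberg, threshold 0.05, two-sided). Noise was tested within each strain and fraction, with the 3 conditions sharing 1 spread. Enrichment was IP minus input as a mean over conditions, without a block. Each IP shares its homogenate with 1 input, by the study's design, and correlated most with it in 16 of 16 homogenates (r of deviations from group means 0.0205 to 0.265). In the Sox2 control and 6 h groups, of 2 homogenates each, both must give the same r (0.0474 and 0.0469). Each of these groups thus counts as 1 check.

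The 10 genes, all named, and the gene lists were chosen with earlier results of these data known. Of each list described, up to 3 genes with the smallest p could be named, and Syt2, Olig1, Opalin, Slc1a2, Gap43 and Ncmap were named after their values were seen where they fell outside this rule. Fits were repeated without the filter, with a pseudocount of 0.1, with totals without mitochondrial genes, with median-of-ratios scaling, with homogenate or replicate number as a block, on control libraries alone, and without each library in turn. Gene positions are from GENCODE M21, and figures were drawn with matplotlib 3.10.9.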

Additional observations from a re-analysis of the deposited data

Results flagged for a closer look

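The enrichment of Uchl1 over input differed between the strains by -1.03 ± 0.29 on the log2(TPM + 1) scale (Prestin minus Sox2, limma interaction, adjusted p = 0.0135), which set it apart as a difference between the groups. Uchl1 was lower in the Prestin pull-down (-0.82 ± 0.18) and did not pass in the Sox2 pull-down (0.21). Its IP was above its own input in 0 of 9 Prestin homogenates and in 2 of 7 Sox2 homogenates. Those 2 were the controls, with 177 and 184 TPM in the IP, and the 5 Sox2 homogenates after noise had 26.6 to 61.7 TPM. In the control libraries alone the difference was -2.33 (adjusted p = 0.0559), and without the Prestin control IP of replicate 1 it was -1.16 (adjusted p = 0.00161).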

How the results depend on the processing

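Counts are of the 10 genes called by limma. Enrichment depended most on the settings. In the Prestin pull-down 3 genes became 8 with median-of-ratios scaling, 5 with totals without mitochondrial genes, 7 with homogenate as a block and 1 in control libraries alone. In the Sox2 pull-down 5 became 0 without mitochondrial genes and 3 in control libraries alone. For the difference between enrichments 1 became 2 with median-of-ratios scaling and 2 with the homogenate block, and 0 in control libraries alone. Median-of-ratios scaling turned Nefl to -0.31 in the Prestin pull-down and, in the Sox2 pull-down, Tubb3 to -0.48, Nefl to -0.25, Nefh to -0.20 and Stmn2 to -0.24. The cause was not tested.

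For Prestin inputs at 6 h, 2 became 1 with no filter, 1 with median-of-ratios scaling and 1 with the replicate number as a block, and at 24 h against 6 h 0 became 1 without mitochondrial genes. Same-numbered libraries across conditions correlated by -0.0744 to 0.0726. This range overlaps that of IPs with their own inputs (0.0205 to 0.265), so these values cannot decide whether the numbers pair libraries. At 24 h against control the replicate-number block gave 4 calls where 5 were found without it. The homogenate block changed no other call.

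Leaving out 1 library moved the counts over 3 to 4 (Prestin pull-down), 3 to 5 (Sox2 pull-down), 1 to 2 (their difference), 0 to 4 (Prestin inputs at 6 h), 3 to 8 (at 24 h) and 0 to 3 (24 h against 6 h). For both inputs together they ran over 0 to 1 at 6 h, 0 to 3 at 24 h and 0 to 1 between the times, and for the strain difference over 0 to 2 at 6 h and 0 to 3 at 24 h. The other counts were 0 in each such fit. Without Prestin 24 h replicates 1 or 2, or control replicates 1 or 3, the 3 calls at 24 h were Nefl, Nefm and Nefh. Over all genes, median-of-ratios scaling moved the Prestin input split at 6 h from 352 higher and 309 lower to 463 and 217, the Prestin IP split from 143 and 797 to 139 and 171 at 6 h and from 183 and 858 to 226 and 329 at 24 h. Precision is limited by groups of 2 or 3 libraries and by TPM without depth.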

Other observations

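The medium and light neurofilament chains came down unequally in the pull-downs. Nefm per Nefl was lower in the IP than in its own input in 16 of 16 homogenates. It was 0.0808 to 0.194 in Prestin IPs against 0.197 to 0.269 in their inputs, and 0.0977 to 0.112 in Sox2 IPs against 0.130 to 0.191. Nefh per Nefl was lower in 11 of 16 homogenates. Nefl lies within Nefm on the other strand, and how reads of the pair were assigned is not given in the sources used here.

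Kcna2, a potassium channel gene of myelinated axons that fell with the neurofilament genes in Prestin inputs, stood at 7.74 to 20.3 TPM in those inputs and at 68.9 to 139 TPM in Sox2 inputs, whose tables list more genes. Nefl ran from 262 to 723 TPM in Prestin inputs and from 273 to 531 TPM in Sox2 inputs.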
